A study of Homo sapiens with 4 samples.

Results

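The genes described here are the nuclear-encoded genes of the mitochondrial respiratory chain and ATP synthase. They were chosen by name from the deposited table of read counts: protein-coding genes outside the mitochondrial chromosome whose symbols start with NDUFA, NDUFB, NDUFC, NDUFS, NDUFV, UQCR, COX4 to COX8 or ATP5, or are SDHA to SDHD. The rule took 91 of 18276 genes. They were measured in MDA-MB-231, a triple-negative human breast cancer line, in 2 libraries of RNA pulled down with an SF3B6 antibody after the cells were irradiated and their lysate digested with micrococcal nuclease (SF3B6 IP 1 and 2), and in 2 libraries of input RNA (input 1 and 2). All 4 come from cells with no other treatment named, and according to the series design each pair is a set of biological replicates. Every title gives MDA-MB-231, although the separate entry for the line ends in another digit in 3 of the 4 samples. Input was the only reference (the antibody protocol also names a control IgG, which is not analysed here), so RNA recovered whatever it is bound to was not told apart from RNA bound to SF3B6.

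The respiratory chain passes electrons from NADH (complex I) and succinate (complex II) through complex III to oxygen at complex IV, and ATP synthase (complex V) uses the proton gradient that complexes I, III and IV build. Complexes I, III, IV and V are mosaics: a few core subunits are translated inside mitochondria from messengers of the mitochondrial genome, and all others are nuclear genes whose messengers are spliced, exported and translated in the cytosol. Complex II is wholly nuclear. SF3B6, also called p14, belongs to the SF3b complex of the U2 small nuclear ribonucleoprotein, which binds around the branch point of an intron; the question here is how much RNA of these genes came down with it.

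The IP libraries held 55492 and 30431 gene counts and the inputs 317190 and 519836. Levels are CPM after TMM: a gene's counts relative to all counts of tested genes, with library sizes adjusted by the trimmed mean of M-values (TMM). On that scale 1 count was worth 22.0 and 43.6 CPM in the IP libraries and 3.52 and 2.04 CPM in the inputs, and the limit for a gene without counts, 3 counts, was 66.1, 131, 10.6 and 6.12 CPM. Without molecular identifiers, these floors and all intervals of count ratios cover counting error only. In the inputs, VIM, the intermediate filament of mesenchymal cells, had 286 and 532 counts. FN1, also looked up as a mesenchymal gene, had 155 and 343, but CDH2 was not among the genes counted. PDGFRB, looked up as a fibroblast gene, had 12 and 25 and DCN had 0 and 1. The receptor genes ESR1 and PGR were not among the genes counted. Epithelial genes went both ways. EPCAM, an adhesion gene, had 2 and 4 counts and CDH1 had 1 and 3. The keratin genes had more, KRT8 171 and 253 and KRT18 93 and 175. SF3B6's own messenger had 1 count in all, in input 2, and gives no check of the pull-down.

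After TMM scaling no nuclear respiratory chain gene passed the test between IP and input, and most were too thinly counted to be tested. In all, the 91 genes held 132 and 51 counts in SF3B6 IP 1 and 2 against 703 and 1157 in input 1 and 2. Both IP libraries had counts of 28 genes, SF3B6 IP 1 alone of 30, SF3B6 IP 2 alone of 3, and neither of 30. Of all 18276 genes, SF3B6 IP 1 had counts of 9042 and SF3B6 IP 2 of 6334. The 30 genes without IP counts had 150 input counts among them, at most 16 for a single gene, which at an equal level would give 13.2 IP counts over all 30. The expression filter kept 12 of the 91, beside 3668 of all 18276 genes. Among the 12, IP was higher for 0 genes and lower for 0 (edgeR's quasi-likelihood test, adjusted p under 0.05). Of all 3668 tested genes, 2.7% were higher and 1.36% lower. None of the 12 reached an unadjusted p under 0.05, as 15.6% of all tested genes did. DESeq2 called 0 of them as well and gave no adjusted p for 7.

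**Figure D1:**
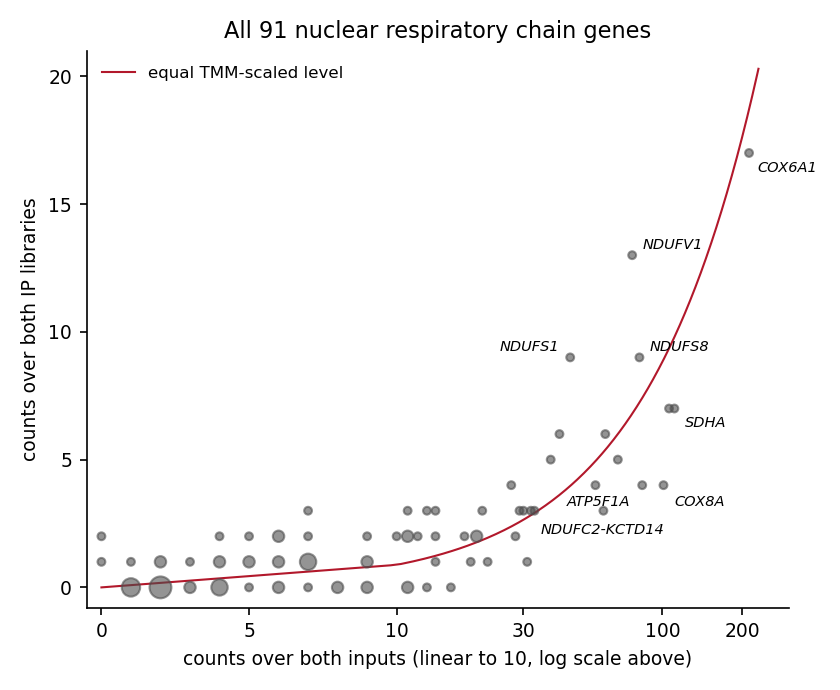
Counts over both IP libraries (vertical axis) against counts over both inputs (horizontal axis, linear up to 10 and logarithmic above) for the 91 genes; larger points hold several genes, and the line marks an equal level after TMM scaling. COX6A1, with 17 IP and 212 input counts, lies close to the line, and the 30 genes with no IP count lie along the bottom.

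COX6A1 was the best counted and the most precisely measured gene of the set, and after TMM scaling its levels in IP and input lay close together. It encodes the widely expressed form of subunit 6A of complex IV (chromosome 12, 120438113 to 120440730). Its counts were 11 and 6 in SF3B6 IP 1 and 2 and 77 and 135 in input 1 and 2. As levels these were 242 and 261 CPM in IP and 271 and 275 CPM in input, or 252 ± 13.6 against 273 ± 3.02 CPM (SD, n = 2 libraries each). Both IP libraries lay below both inputs, but by little. The log2 fold change, IP minus input, was -0.14 ± 0.35 (SE; edgeR adjusted p = 0.919), with a 95% interval from -0.85 to 0.58. On the FPKM totals, that is, with library sizes in the ratio of the totals behind the authors' FPKM values, it was -1.73 (adjusted p = 0.0143), a call of lower in IP. After TMM, COX6A1 was the one gene of the 12 whose interval excluded a 2-fold difference both ways; for the other 11 it reached 1 or -1 on the log2 scale.

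COX8A, the ubiquitous form of the smallest nuclear subunit of complex IV (chromosome 11, 63974620 to 63976543), had the lowest fitted fold change. Its levels were 22.0 and 131 CPM in SF3B6 IP 1 and 2, from 1 and 3 counts, and 144 and 122 CPM in input 1 and 2. SF3B6 IP 1 was low, while SF3B6 IP 2 fell between the inputs. The log2 fold change was -1.15 ± 0.69 (SE; edgeR adjusted p = 0.424; 95% interval -2.55 to 0.25), which was -0.21 without SF3B6 IP 1, -2.64 without SF3B6 IP 2 and -2.70 on the FPKM totals (adjusted p = 0.00668). The remaining complex IV genes had too few counts to test. COX4I1, the form of subunit 4 found in most tissues, had 1 and 0 counts after IP and 7 and 24 in input, a ratio of 0.366 with an exact interval from 0.00897 to 2.19.

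**Figure D2:**
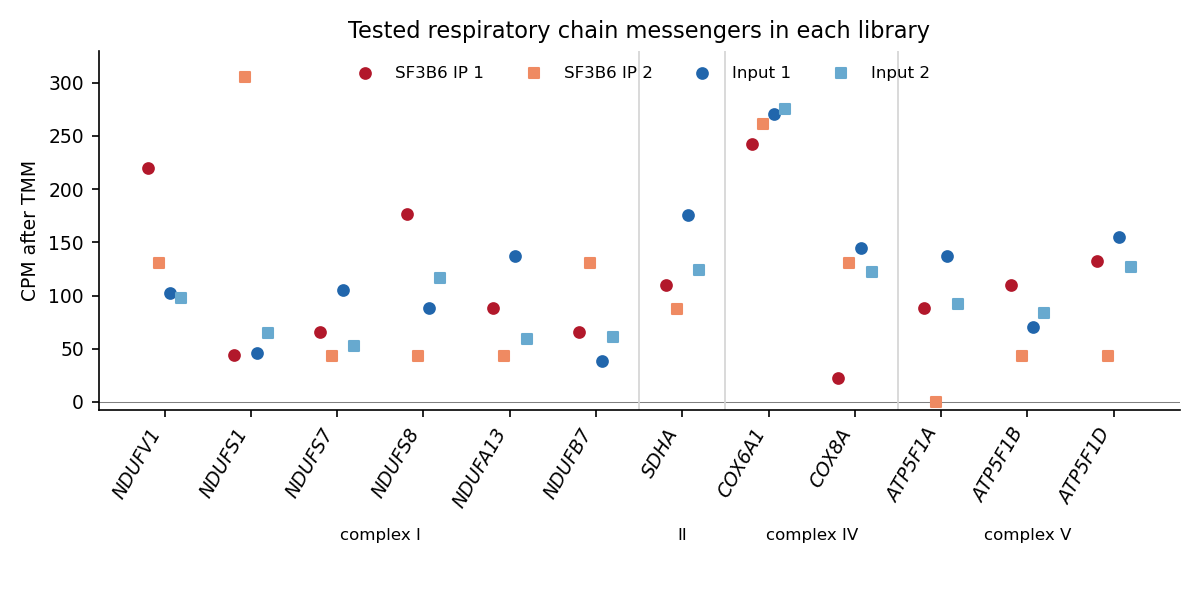
CPM after TMM (vertical axis) of the 12 tested genes in each of the 4 libraries, ordered by complex. COX6A1 sits between 242 and 275 CPM in every library, whereas NDUFS1 ranges from 44.0 to 305 CPM within the IP pair.

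Complex I supplied 6 of the tested genes, of which 4 had positive and 2 negative fold changes, none past the threshold. NDUFV1 encodes the core subunit that binds NADH and flavin (chromosome 11, 67606936 to 67612554). It stood at 220 and 131 CPM in SF3B6 IP 1 and 2, from 10 and 3 counts, and at 102 and 97.8 CPM in input 1 and 2, from 29 and 48 counts. Both IP libraries were above both inputs, by a log2 fold change of 0.93 ± 0.48 (SE; edgeR adjusted p = 0.340; 95% interval -0.05 to 1.91), which was 0.18 without SF3B6 IP 1 and -0.69 on the FPKM totals. NDUFS1 encodes the largest iron-sulfur core subunit (chromosome 2, 206114817 to 206159444). Its levels were 44.0 and 305 CPM in SF3B6 IP 1 and 2, from 2 and 7 counts, and 45.7 and 65.2 CPM in the inputs. SF3B6 IP 2 alone was high. Its log2 fold change of 1.18 ± 0.65 (SE; edgeR adjusted p = 0.377) was the highest of the 12 genes, but it was -0.49 without SF3B6 IP 2, 2.17 without SF3B6 IP 1 and -0.35 with the FPKM totals.

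The other 4 tested complex I genes lay nearer to 0. NDUFS8, an iron-sulfur core subunit, had 8 and 1 IP counts and 25 and 57 input counts. SF3B6 IP 1 was above and SF3B6 IP 2 below both inputs, at 176 and 43.6 against 88.0 and 116 CPM, and the log2 fold change was 0.31 ± 0.56 (SE; edgeR adjusted p = 0.877), but -1.49 without SF3B6 IP 1 and -1.30 on the FPKM totals. NDUFB7, an accessory subunit of the membrane arm, had 3 counts in each IP library beside 11 and 30 in the inputs. Both IP libraries were above both inputs, at 66.1 and 131 against 38.7 and 61.2 CPM, with a log2 fold change of 0.74 ± 0.71 (adjusted p = 0.670) that was 0.23 without SF3B6 IP 2 and -0.83 with the FPKM totals. NDUFS7, the core subunit next to the quinone site, was at -0.30 (adjusted p = 0.923), and NDUFA13, an accessory subunit also known as GRIM-19, at -0.26 (adjusted p = 0.931). In both, the IP values overlapped those of the inputs. Without SF3B6 IP 1 they were -0.94 and -1.22, and on the FPKM totals -1.91 and -1.89, where both were called lower (adjusted p = 0.0353 and 0.0340).

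SDHA, the flavoprotein that oxidises succinate in complex II (chromosome 5, 218320 to 268746), stood at 110 and 87.1 CPM in SF3B6 IP 1 and 2 and at 176 and 124 CPM in input 1 and 2. Both IP libraries were below both inputs, with a log2 fold change of -0.49 ± 0.57 (SE; edgeR adjusted p = 0.763; 95% interval -1.64 to 0.66). It was -0.93 without SF3B6 IP 1, and on the FPKM totals it was -2.09 and called lower (adjusted p = 0.0156). The other 3 genes of complex II could not be tested. For SDHB, its iron-sulfur subunit, there were 0 and 2 IP counts beside 5 and 6 from the inputs, a ratio of 2.06 with an exact interval from 0.222 to 9.44. SDHD, a membrane anchor, had 0 and 0 against 5 and 8, and SDHC, the other anchor, had none in IP.

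Complex III had no gene with enough counts to test. UQCRC1, a core protein, had 5 and 0 counts in SF3B6 IP 1 and 2 and 12 and 26 in input 1 and 2, a ratio of 1.49 with an exact interval from 0.458 to 3.79. UQCRQ, a small membrane subunit, had 1 and 0 against 4 and 15, a ratio of 0.597 with an interval from 0.0144 to 3.75. UQCRB had 1 and 0 against 1 and 1.

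Of complex V, 3 of 18 genes could be tested: the alpha and beta subunits of the catalytic head and the delta subunit of the central stalk. ATP5F1A, the alpha subunit (chromosome 18, 46080248 to 46104227), was counted 4 and 0 times in IP and 39 and 45 times in input. Its level was 88.1 CPM in SF3B6 IP 1 against 137 and 91.7 CPM in the inputs; SF3B6 IP 2 had no count, which allows up to 131 CPM and so cannot be placed below the inputs. Its log2 fold change was -0.89 ± 0.75 (SE; edgeR adjusted p = 0.613; 95% interval -2.40 to 0.63). It was -0.40 without SF3B6 IP 2 and -2.50 on the FPKM totals (adjusted p = 0.0104), and without SF3B6 IP 1 it has no IP count from which to give a fold. ATP5F1B, the beta subunit that carries the catalytic sites, was at 0.16 ± 0.65 (edgeR adjusted p = 0.957), from 5 and 1 against 20 and 41 counts. In other scalings it was 0.02 (upper quartile), -0.09 (plain library totals) and -1.44 (FPKM totals), and without SF3B6 IP 1 it was -1.06. ATP5F1D, the delta subunit, was at -0.42 ± 0.57 (adjusted p = 0.813), from 6 and 1 against 44 and 62 counts, with -1.86 without SF3B6 IP 1 and -2.04 on the FPKM totals (adjusted p = 0.0185). The alpha and beta subunits form one head in equal number, and their fitted values here differed in sign but overlapped widely in their intervals.

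**Figure D3:**
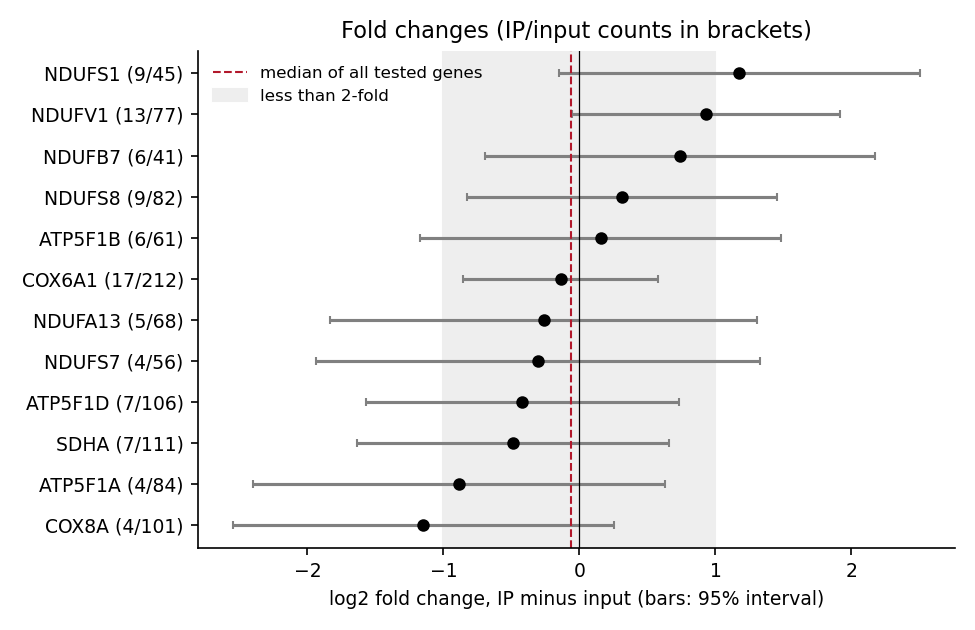
Log2 fold change, IP minus input, of the 12 tested genes (horizontal axis) with 95% intervals from edgeR's fit; brackets give pooled IP and input counts, the dashed line the median of all tested genes (-0.06) and the grey band differences under 2-fold. On this TMM scale every interval includes 0, and COX6A1's alone stays within the band.

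Over the 12 tested genes the median log2 fold change was -0.20, beside -0.06 over all 3668 tested genes, of which the middle part, between the quartiles, ran from -0.53 to 0.41. For 2 of the 12 genes the IP pair was wholly above the input pair and for 3 wholly below, beside 20.9% and 28.5% of all tested genes; the 3 include ATP5F1A, with its library without counts. With the FPKM totals the median of all tested genes was -1.65 and that of the 12 was -1.81. In that scaling 7 of the 12 were called lower and 0 higher, beside 57.2% of all tested genes called lower. In limma's fits of the FPKM values 9 of the 12 were lower on log2(FPKM + 1), beside 69.5% of all tested genes, and 7 on log2(FPKM + 0.1), beside 50.8%. IP and input share no absolute scale, so the calls depend on how libraries are scaled, and a fold change compares a gene with the others of its library. Across the 12 genes, Spearman's rho of the fold change was 0.17 with the mean level, 0.05 with the gene span in RefSeq and 0.10 with the exonic length implied by counts over FPKM; all values come from the same 4 libraries.

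As a whole, the 91 genes held a like share of counts in IP and input, while the sums by complex lay on either side of equal. All 91 genes together made up 0.238% and 0.168% of counts in SF3B6 IP 1 and 2 (Wilson 95% intervals 0.201 to 0.282 and 0.127 to 0.220) and 0.222% and 0.223% in input 1 and 2 (0.206 to 0.239 and 0.210 to 0.236). The inputs fell between the IP libraries. After TMM the sums were 2564 ± 484 CPM in IP and 2416 ± 81.3 CPM in input (SD, n = 2 libraries each). The ratio of pooled counts was 1.12 with an exact interval from 0.953 to 1.30, or 0.16 on the log2 scale, 0.02 after upper quartile scaling, -0.06 on plain library totals and -1.45 on the FPKM totals. It was -0.33 without SF3B6 IP 1.

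Complex I, with 37 subunit genes, had the largest sum: 1365 and 1002 CPM in SF3B6 IP 1 and 2 and 946 and 917 CPM in input 1 and 2. Its pooled ratio was 1.34 (exact interval 1.06 to 1.68), or 0.42 on the log2 scale. That log2 value was 0.20 on plain library totals, -0.11 without SF3B6 IP 1 and -1.19 with the FPKM totals. The 18 genes of complex V came to 661 and 305 CPM in IP against 510 and 438 CPM in input, with a ratio of 1.16 (0.807 to 1.64) whose log2 value was -0.83 when SF3B6 IP 1 is left out. The 11 genes of complex IV, here with NDUFA4, which is now counted to that complex, came to 418 and 523 against 542 and 522 CPM (ratio 0.857, 0.575 to 1.24). The 9 genes of complex III had a ratio of 1.29 (0.621 to 2.40), or -0.74 as a log2 value when SF3B6 IP 1 is left out, and the 4 of complex II a ratio of 0.718 (0.322 to 1.40). SF3B6 IP 1 was thus the higher IP library for complexes I, III and V and the lower for II and IV. A further 12 genes matched the names but are assembly factors, read-through genes or other non-subunits. Among them are the NDUFAF genes, ATP5IF1, the inhibitor of ATP synthase, and the read-through genes NDUFC2-KCTD14 and ATP5MF-PTCD1. The ratio of the 12 was 0.859 (0.402 to 1.63). NDUFC2-KCTD14 alone held 60 of their 132 input counts and 3 of their 10 IP counts. No p-value is given for these sums.

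**Figure D4:**
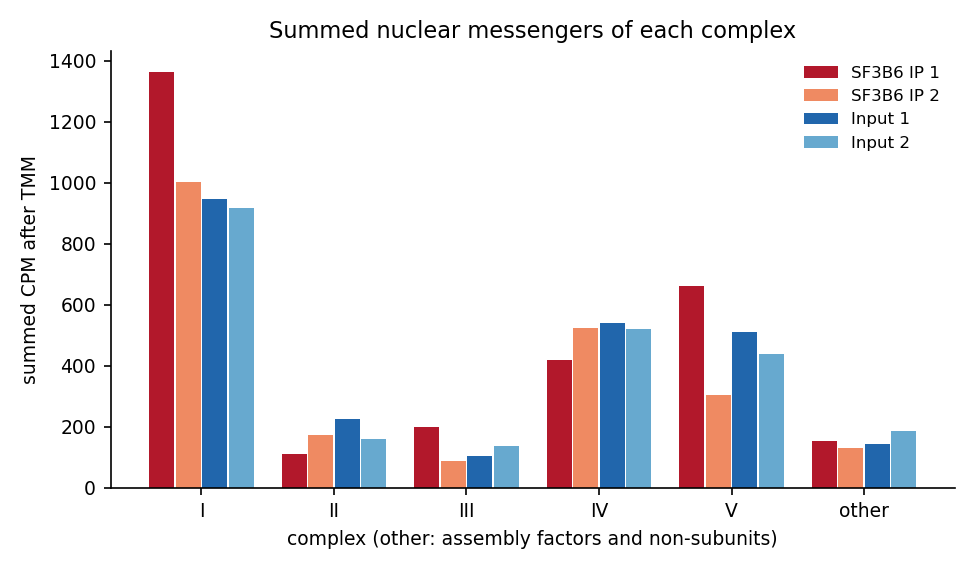
Summed CPM after TMM (vertical axis, from 0) of the nuclear genes of each complex and of 12 assembly factors and non-subunits, 1 bar per library. The inputs agree closely for complexes I and IV, and the 2 IP libraries stand furthest apart for complexes I and V, at 1365 and 1002 and at 661 and 305 CPM.

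Mitochondrial messengers had more counts per count of nuclear messengers of the same complexes in IP than in input. The 13 mitochondrially encoded messengers of the same complexes were all tested, and 10 were higher in IP and 0 lower, with a median log2 fold change of 1.18; these results were known when they were taken for comparison. With library totals 6 were higher, in DESeq2 5, without SF3B6 IP 1 3 and without input 2 3, and with the FPKM totals 0 were higher, 1 was lower and the median was -0.43. Counts of mitochondrial messengers per count of nuclear messengers do not depend on how libraries are scaled. For complexes I, III, IV and V together this number was 3.51 and 4.14 in SF3B6 IP 1 and 2 and 1.88 and 1.63 in input 1 and 2. Pooled, it was 3.68 in IP and 1.73 in input, 2.13 times as high. For complex I it was 3.55 and 4.61 in IP against 2.04 and 1.77 in input, with nuclear counts of 62 and 23 against 269 and 450. For complex IV it was 7.05 and 4.67 against 2.91 and 2.44. For complex V, where MT-ATP6 and MT-ATP8 are the mitochondrial part, it was 1.43 and 1.29 against 0.372 and 0.381, from 30 and 7 nuclear counts in IP. For complex III, where MT-CYB is the only mitochondrial messenger, it was 2.67 and 5.5 against 2.43 and 1.64, but rested on 9 and 2 nuclear counts in IP. The IP values of each of these complexes were thus both higher than the input values. Since both IP libraries were shallower than either input, a difference by depth cannot be told apart from one by IP.

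**Figure D5:**
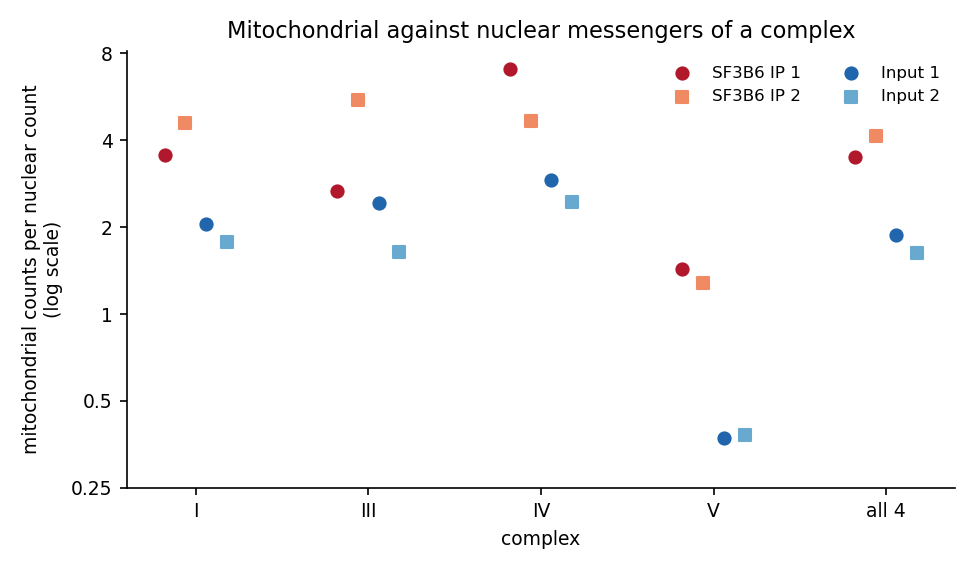
Counts of mitochondrially encoded messengers per count of nuclear messengers of the same complex (vertical axis, log scale) in each library, for complexes I, III, IV and V and for all 4 together. The IP points are above the input points in every column, from 3.51 and 4.14 against 1.88 and 1.63 for all 4 to a near overlap in complex III, 2.67 against 2.43.

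Other nuclear genes of mitochondrial energy metabolism also gave few genes to test and no calls after TMM. Of 45 further respiratory chain genes outside the naming rule (cytochromes and assembly factors), 4 were tested and 0 were called. The best counted, CYC1, the cytochrome subunit of complex III, had 14 and 1 IP counts and 42 and 74 input counts (log2 fold change 0.55 ± 0.46 SE, edgeR adjusted p = 0.610). SF3B6 IP 1 was high and SF3B6 IP 2 low for it, at 308 and 43.6 CPM around inputs of 148 and 151 CPM. The others tested were LRPPRC, which stabilises mitochondrial messengers, at 0.50, TTC19 at 0.77 and UQCC2 at 0.12. Of 18 genes of the tricarboxylic acid cycle and its feeders, 4 were tested and 0 called, among them PC, pyruvate carboxylase, at -0.54 ± 0.37 (adjusted p = 0.499). Cytosolic ribosomal protein genes are nuclear genes too, but were better counted: 54 of 82 were tested. Their median log2 fold change was 0.28, and RPL36 alone was called (1.60 ± 0.45 SE, edgeR adjusted p = 0.0334), a call that no alternative kept. With the FPKM totals, where 57.2% of all tested genes were lower and their median was -1.65, 23 of the 54 were lower with a median of -1.31. The cycle genes had 3 of 4 lower there, and the further respiratory chain genes had a median of -1.10. The best counted ribosomal protein gene, RPS3, was at 0.37 ± 0.21 after TMM (edgeR adjusted p = 0.387). Pooled ratios were 1.16 (0.913 to 1.45) for the further respiratory chain genes and 0.887 (0.661 to 1.17) for the cycle genes. For the ribosomal protein genes the ratio was 1.19 (1.10 to 1.28), beside 1.12 for the 91 genes. These ratios depend on the TMM scaling. As plain shares of counts, the ribosomal protein genes held 0.986% and 0.730% in SF3B6 IP 1 and 2. In input 1 and 2 they held 0.879% and 0.872%, between the IP libraries.

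Levels per length, compared between genes by the authors' FPKM values, were dominated by a few genes. In the inputs COX8A stood at 43.4 ± 6.06 FPKM (SD, n = 2 libraries), COX6A1 at 33.4 ± 8.82 and NDUFB7 at 15.9 ± 8.72, and the library values of COX8A and COX6A1 overlap. They were followed by the read-through gene NDUFC2-KCTD14 at 15.1, NDUFA1, an accessory subunit of complex I, at 10.9 and ATP5F1D at 10.0. Only these 6 genes were above 10 FPKM, 35 were above 1 FPKM, and the median of the 91 was 0.805, beside 0.575 for the 13464 nuclear protein-coding genes of the table. COX7C, another small complex IV subunit, was at 0.440 ± 0.0566, from 2 and 2 input counts. UQCRB was at 0.0350 ± 0.00707, from 1 and 1. With so few counts these SDs do not show how precise the values are. Subunits of one complex thus had very unequal FPKM in the same input libraries, but the lengths behind them were unequal too. In relative units, the length implied by counts over FPKM was 1.26 for COX8A and 5.00 for COX7C. For UQCRB, a gene of complex III, it was near 32, a rough value from FPKM given as 0.04 and 0.03. How much of the difference is due to length was not tested.

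Some values depend on how reads of overlapping genes were assigned. Of the 91 genes, 38 overlap another gene of the RefSeq table (GRCh38.p14) and 5 of these were among the 12 tested. These 5 were ATP5F1A, ATP5F1B, COX6A1, NDUFS1 and NDUFS8. The pseudogene LOC124903126 lies within COX6A1 and the transcribed pseudogene GCSHP3 within NDUFS1, and neither was among the genes counted. NDUFC2, an accessory subunit gene on chromosome 11 (78068297 to 78079862), lies within NDUFC2-KCTD14 (78015715 to 78079862). The read-through had 2 and 1 IP counts and 17 and 43 input counts, whereas NDUFC2 had 0 and 0 against 3 and 5, and KCTD14 had 0 and 0 against 0 and 1. ATP5F1B (chromosome 12, 56638175 to 56645984) overlaps BAZ2A (56595596 to 56638318) only at its edge. BAZ2A had 4 and 2 IP counts and 38 and 102 input counts. The sources used here do not say how the counting shared such reads, or those of processed copies of these genes.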

How the data were processed

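Raw gene counts and FPKM values (per gene length and library total) were taken as the authors deposited them, for the same genes. HISAT2, HOMER and hg38 are named in the submitters' processing notes; counter, strand setting and handling of multiply placed reads: not given in the sources used here. Within each pair the 2 libraries differed beyond counting noise (chi-square per degree of freedom: IP 2.49, input 1.50), so each counted as 1 replicate.

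Counts were tested over the whole table with edgeR 4.0.16 in R 4.3.3 (quasi-likelihood test, TMM, filterByExpr, a term for IP or input, Benjamini-Hochberg at 0.05). The genes described were read from that fit. On simulated counts the same fit called 23.3% of 90 genes changed 2-fold and 67.4% of 89 changed 4-fold, with 4 false calls. It thus misses most 2-fold differences at this depth. SE is the fold change over the root of F. Alternatives were library totals, upper quartile, totals implied by counts over FPKM, DESeq2 1.42.0, other filters, a replicate block, each library left out, and limma 3.58.1 on log2(FPKM + 1) and log2(FPKM + 0.1). Relative to input 2, the totals implied by counts over FPKM were 0.298 for SF3B6 IP 1, 0.197 for SF3B6 IP 2 and 0.833 for input 1. They are medians over 228, 93 and 919 genes. The gene counts of these libraries were 55492, 30431 and 317190, beside 519836 in input 2. Count ratios use TMM-scaled library sizes, with exact intervals. Of the 91 symbols, 90 matched RefSeq, all but NDUFA4. Named are the 12 tested genes, the best counted pair of each complex (SDHB and SDHD tied), of each further list the best counted and called genes (the mitochondrial list is given by its counts), and some untested genes chosen after their values were seen. Members and lists were chosen with earlier results of these data known.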

Additional observations from a re-analysis of the deposited data

How the results depend on the processing

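The counts of 0 genes called higher held in all alternatives and those of 0 called lower in all but those that use the FPKM scale: 7 were lower with the FPKM totals, 9 with limma on log2(FPKM + 1) and 7 on log2(FPKM + 0.1), with medians of the tested genes of -1.81, -1.17 and -1.78 where all tested genes had medians of -1.65, -1.05 and -1.66. With the FPKM totals the log2 ratios of summed counts were -1.19, -2.09, -1.25, -1.83 and -1.39 for complexes I to V, -1.83 for assembly factors and other non-subunits and -1.45 for all 91 genes. Genes with positive values turned negative on these 3 scales in turn: ATP5F1B at -1.44, -1.26 and -1.69, NDUFB7 at -0.83, -0.63 and -0.68, NDUFS1 at -0.35, -0.11 and -0.38, NDUFS8 at -1.30, -1.08 and -1.69, and NDUFV1 at -0.69, -0.58 and -0.81. ATP5F1B was also at -0.092 with library totals and -0.32 with no filter, NDUFS8 at -0.16 with no filter, and COX6A1 at 0.067 with a minimum of 50 counts in 2 libraries, where 2 of the 91 genes were tested.

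Leaving out each library in turn, the median of the tested genes ran from -0.21 to 0.86. These medians cover different sets: 27 genes were tested without SF3B6 IP 1, 25 without SF3B6 IP 2 and 2 without either input. The log2 ratios ran from -0.11 to 0.48 for complex I, -0.74 to 0.64 for complex III, -0.83 to 0.41 for complex V, -0.60 to 0.050 for assembly factors and other non-subunits and -0.33 to 0.23 for all 91 genes. NDUFS1 ran from -0.49 to 2.17. Without SF3B6 IP 1 and without SF3B6 IP 2, ATP5F1B was at -1.06 and 0.39 and NDUFS8 at -1.49 and 0.64. Neither of them was tested with an input left out. With a replicate block 0 genes were called and the median was -0.34; same-numbered libraries did not deviate together (r = 0.00044 across 3668 genes), and the labels do not say what a number shares. Both the scaling and the depth of the IP libraries limit these results: 2 of the 91 genes had at least 10 IP counts. The cause of the shifts other than the scaling was not tested.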
